A study of Mus musculus with 13 samples.

Results

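The Wnt genes described here are 46 genes of the Wnt pathway, chosen by symbol: 7 ligands, 2 genes of ligand export, 8 Frizzled receptors, 5 co-receptors and kinase receptors, 8 cytoplasmic transducers, 4 TCF/LEF factors, 6 secreted inhibitors, 5 genes of feedback and receptor turnover, and Ccn4. They, and the lists of other genes used below, were chosen with earlier results of these data known. All 46 symbols were matched to the 57010 genes listed in each library, and all 46 were among the 15034 genes that passed the filter on low counts and were tested. RNA was sequenced from wild-type (WT) mouse embryonic fibroblasts (MEFs), which are primary fibroblasts grown from mouse embryos. The study's question for this assay was which transcripts change when senescent MEFs are given Fucoidan-FV, a fucose-rich sulfated sugar polymer taken from Fucus vesiculosus, a brown seaweed.

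There were 4 groups, each with cells of mice 4, 5 and 6. Control MEFs were labelled untreated, and the study describes them as given vehicle. Senescent MEFs, also labelled untreated, had received etoposide, a topoisomerase inhibitor that breaks DNA, at 2 μM for 24 h and then 5 days of normal medium. The other groups were etoposide-treated in the same way and then received Fucoidan-FV for 12 h before lysis, at a dose of 100 μg/mL in the one and of 300 μg/mL in the other. The titles of the untreated senescent samples carry the code Eo and those of the treated ones Eto. No group of non-senescent MEFs with Fucoidan-FV is among these samples, and the strain of the mice is not given in the sources used here. Control mouse 5 had a pair of libraries, labelled 5(1) and 5(2), which were summed, so that 13 libraries gave 3 mice per group.

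Wnt proteins are secreted lipid-modified ligands. Porcn attaches the lipid and Wls carries the ligand to the cell surface, where it binds a Frizzled receptor with Lrp5 or Lrp6. Binding stops the complex of Axin, Apc and Gsk3b from marking beta-catenin (Ctnnb1) for breakdown, and beta-catenin then works with TCF/LEF factors to switch on target genes. Axin2, Lef1 and Nkd1 are widely used targets of this route, and Axin2 and Nkd1 also dampen it. Other ligands, such as Wnt5a, act mainly without beta-catenin through Ror and Ryk receptors. R-spondins (Rspo) strengthen the signal by removing the ubiquitin ligases Znrf3 and Rnf43, which otherwise clear Frizzled receptors from the surface. Dkk, Sfrp, Frzb and Wif1 proteins are secreted and bind receptors or ligands. In fibroblasts the pathway is known for its part in growth, matrix production and wound repair.

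Levels are given as CPM, counts scaled to a common library size with TMM factors, for comparing 1 gene between samples, and as TPM, a relative transcript abundance, where genes are compared with each other, since TPM accounts for length. A gene is called higher or lower when the adjusted p of edgeR's quasi-likelihood test is under 0.05 and the log2 fold change is over 1 in size. "Rose" and "fell" are used for called genes only. Library totals ran from 22782536 to 31278750 counts. Genes of cell cycle arrest and division separated the labelled groups: Cdkn1a was at 468 ± 83.2 CPM in control and 1652 ± 187 CPM in senescent MEFs (SD, n = 3), and Mki67 at 41.8 ± 25.5 and 1.75 ± 0.985 CPM. The 10 fibroblast markers were all tested and summed to between 10613 and 16543 CPM in every sample, but single genes of the list moved. Dcn and Lum rose 15.5-fold and 9.33-fold in senescent MEFs (edgeR adjusted p = 0.00215 and 0.0375). Both rose again at 100 μg/mL, 5.03-fold and 9.8-fold (0.0477 and 0.0399). Col3a1 rose 2.6-fold and 2.25-fold at the 2 doses (0.0164 and 0.0489). Vim had a log2 fold change of −0.87 at 100 μg/mL (0.0245), too small in size for a call. The other genes of the list were not called. Markers of other cell types were lower, and some moved with the groups. The macrophage list summed to 0.564 to 5.26 CPM in control and 3.2 to 17 CPM in senescent MEFs. With 100 and 300 μg/mL it summed to 6.64 to 14.6 and 3.3 to 11.6 CPM. The skeletal muscle list summed to 104 to 196 CPM in control and 149 to 359 CPM in senescent MEFs. With 100 and 300 μg/mL it summed to 91.7 to 148 and 67.8 to 119 CPM. No tested gene of these 2 lists was called. The endothelial list summed to at most 4.11 CPM in control and senescent MEFs, to 9.43 to 23 CPM with 100 μg/mL and to 11.9 to 15.2 CPM with 300 μg/mL, with Cldn5 at 0 in all 4 groups. Tek rose 12-fold at 100 μg/mL (edgeR adjusted p = 0.0446), and Erg had 10.5-fold and 13.4-fold differences that did not pass (0.0555 and 0.0597). Others of this list did not share this. Kdr was at mean levels of 0.633 CPM in senescent MEFs and 0.435 and 0.25 CPM at the 2 doses. Cdh5 was at 0.247, 0.165 and 0.124 CPM, Pecam1 at 0.22, 0.497 and 0.344 CPM and Emcn at 0.518, 0.999 and 0.664 CPM. Tie1 was at 0, 0.0104 and 0 CPM. Kdr, Pecam1 and Emcn were not called, and Cdh5 and Tie1 were not tested. The epithelial list summed to 15.9 to 33.3 CPM in control, 7.03 to 17.7 in senescent, 1.83 to 3.71 with 100 μg/mL and 1.86 to 3.06 with 300 μg/mL. Its main gene Krt19 fell at both doses (edgeR adjusted p = 0.00757 and 0.0101). Krt18, the other tested gene, was not called, at mean levels of 0.75 CPM in senescent MEFs and 0.676 and 0.403 CPM at the 2 doses. The rest were not tested. Of these Epcam was at 0.0766, 0.0933 and 0.182 CPM, Cdh1 at 0.068, 0.103 and 0.0711 CPM and Krt8 at 0.0703, 0.11 and 0.0257 CPM. Cldn4 was at 0.182, 0.167 and 0.115 CPM, Krt5 at 0, 0.0346 and 0.0119 CPM and Krt14 at 0, 0.0631 and 0 CPM. The neural list summed to 586 to 1097 CPM in control, 644 to 1080 in senescent, 227 to 232 with 100 μg/mL and 220 to 248 with 300 μg/mL. In the neural list Nes, which fibroblasts also express, made up most of the sum, and it fell at both doses (adjusted p = 0.000442 and 0.000952). Map2 rose 8.21-fold and 9.37-fold (0.00897 and 0.0102), Tubb3 had mean levels of 34.9 CPM in senescent MEFs and 62.3 and 52.1 CPM at the 2 doses with no call, and Sox2 and Pax6 were at mean levels below 1 CPM in each group. The part of these cells in the results below was not tested, and in bulk RNA fewer cells of a type and less RNA per cell cannot be told apart.

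The libraries 5(1) and 5(2) of control mouse 5 did not give the same Wnt levels. For each gene the share of exonic bases that lie in a single annotated transcript was computed, which is 100% for a gene with 1 transcript. Of the 16 members with over 75% of such bases, 13 were more than 2-fold higher in library 5(2) than in 5(1), with a median log2 difference of 2.20. Of the other 30 members Porcn was more than 2-fold higher in 5(2), Axin2 (3.20 CPM in 5(1) and 1.19 CPM in 5(2)) and Nkd2 (12 and 5.68 CPM) were more than 2-fold lower, and the median difference was −0.17. The same held outside the Wnt genes, with a median difference of 1.66 over 1327 protein-coding genes with over 95% of such bases and −0.19 over 7168 genes with under 50%. Sfrp1 was at 1.02 CPM in 5(1) and 11.6 CPM in 5(2), Dkk3 at 7.06 and 56.4 CPM, and Rspo3 at 0.176 and 3.73 CPM.

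This pattern touches Fzd1, Fzd2, Fzd3, Fzd4, Fzd7, Fzd8, Ror1, Dkk2, Dkk3, Sfrp1, Wnt4, Wnt16 and Rspo3. As a library index, the median log2 deviation of the protein-coding genes with over 95% single-transcript bases was taken in each sample, leaving out the Wnt and marker lists. The index was 0.36, 0.06 and −1.09 in control mice 4, 5 and 6, 0.15, −0.74 and 0.27 in senescent mice, 0.77, 0.84 and −0.24 with 100 μg/mL, and −0.86, 0.40 and 0.09 with 300 μg/mL. The group means were −0.22, −0.11, 0.46 and −0.12, so the 100 μg/mL group had the highest mean and overlapped with the others. The part of this difference between libraries in each result was not tested, and for the called members Wnt16, Rspo3, Sfrp1 and Fzd4 fits that take it into account are given beside the values.

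**Figure D1:**
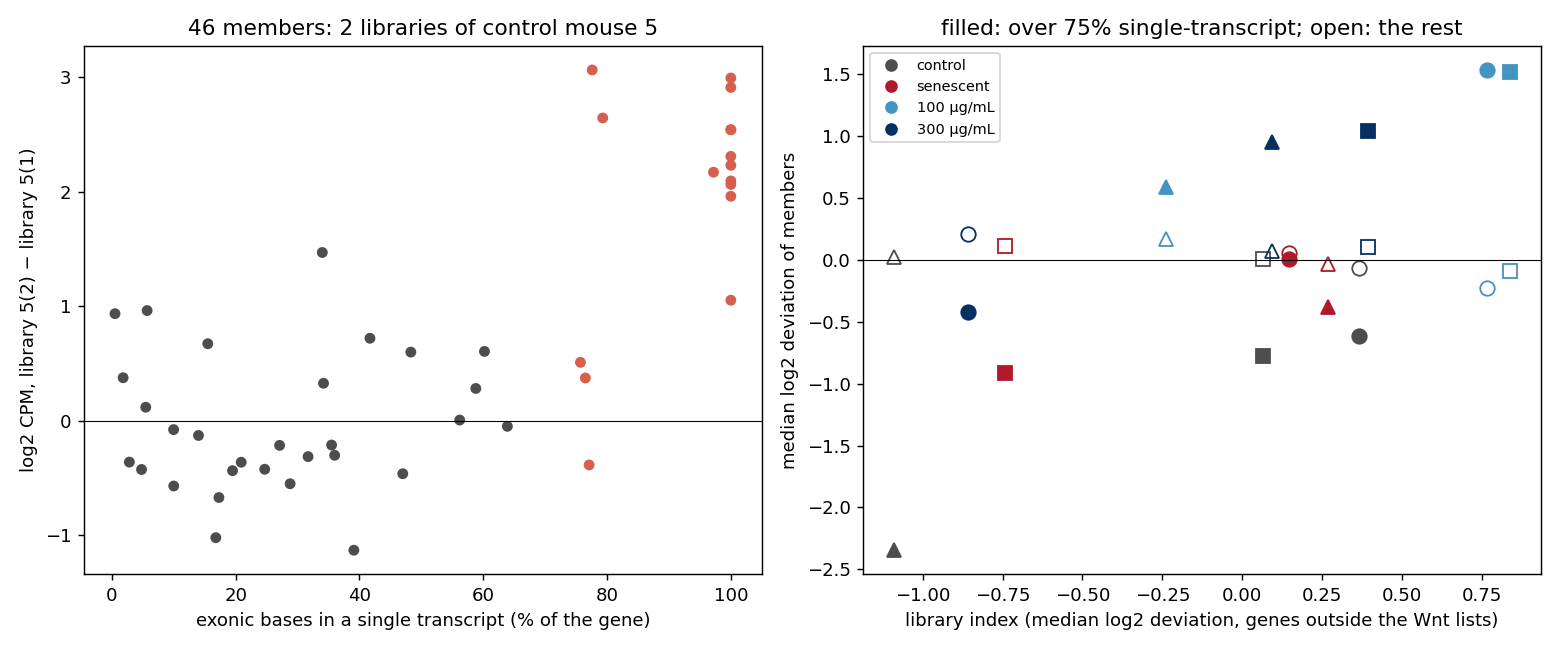
Left, for each of the 46 members, the log2 CPM difference between libraries 5(2) and 5(1) of control mouse 5 (y axis) against the percent of its exonic bases in a single transcript (x axis), with members over 75% in red. Right, for each of the 12 samples (circles mouse 4, squares mouse 5, triangles mouse 6), the median log2 deviation of the members from their mean over samples (y axis) against the library index (x axis), filled for the 16 members over 75% and open for the other 30. The red points have a median of 2.20 and the others of −0.17, and in control mouse 6, at an index of −1.09, the filled symbol is the lowest on the y axis.

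Between senescent and control MEFs 5 of the 46 Wnt genes rose and none fell, and the 5 were the ligands Wnt9a and Wnt16, the secreted inhibitors Frzb and Wif1, and the R-spondin Rspo3. Of all genes tested, 4.47% were called higher and 3.95% lower. At an unadjusted p under 0.05 there were 11 higher and 4 lower, where 25.4% of all genes tested lay under that p. DESeq2 called 7 members higher and 2 lower, Tcf7 and Wnt5b, and over all 15757 genes that it tested 1072 higher and 754 lower. The median log2 fold change was 0.22 over the 46 members and 0.07 over all genes tested. Over all genes the calls were 672 higher and 594 lower, but 692 higher and 1031 lower once offsets for single-transcript share, length and GC content were used, which moved the median of all genes to −0.12. The values of 14 members did not overlap between these groups, 9 of them higher in senescent MEFs and 5 lower, and of all genes tested 27.1% did not overlap, 14.2% higher and 12.9% lower.

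Wnt9a, a ligand known from joint and blood stem cell development (chr11:59197567-59224378, plus strand, GRCm39), was at 5.01, 5.69 and 13.1 CPM in control mice 4, 5 and 6 and at 37.1, 45.4 and 24.1 CPM in senescent mice. All 3 senescent samples lay above all 3 controls. The log2 fold change was 2.17 ± 0.36 (SE), or 4.50-fold, with an adjusted p of 0.00164 by edgeR. Wnt9a was called in each of the 6 fits that left out 1 mouse, and under Fucoidan-FV it was at 26.3, 31.2 and 31.2 CPM with 100 μg/mL and at 31.7, 35.4 and 37.1 CPM with 300 μg/mL, with no call at either dose.

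Wnt16, a ligand of bone and synovial tissue (chr6:22288221-22298521, plus strand), was at 0.68, 1.71 and 0 CPM in control and at 5.46, 6.21 and 2.96 CPM in senescent mice. The groups did not overlap, and the log2 fold change was 2.51 ± 0.70 (edgeR adjusted p = 0.0334). In control mouse 5 it was at 0 CPM in library 5(1) and 3.69 CPM in 5(2). With 5(2) alone the log2 fold change was 1.73 and the call was lost (adjusted p = 0.228), and with 5(1) alone it was 4.42 (adjusted p = 0.00407). The call was also lost with 5(1) and 5(2) as separate samples (adjusted p = 0.174), with only these groups in the fit (0.233), and when control mouse 4, senescent mouse 4 or senescent mouse 5 was left out. With the library index as a covariate the log2 fold change was 2.49 and with the sequence offsets 2.58, and both were called.

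With Fucoidan-FV Wnt16 was at 22.7, 25.4 and 23.3 CPM at 100 μg/mL and at 27.1, 26.9 and 22.2 CPM at 300 μg/mL, and every treated sample lay above every senescent one. The log2 fold changes were 2.29 ± 0.67 and 2.38 ± 0.67, and neither passed the test in the fit of all 4 groups (edgeR adjusted p = 0.071 and 0.0933). Fitted with only the 2 groups compared, both passed (adjusted p = 0.0211 and 0.0224), and with DESeq2 as well (0.00327 and 0.00368). With the library index the log2 fold changes were 2.16 and 2.38 and with the sequence offsets 1.99 and 2.38, and in either fit that at 300 μg/mL was called and that at 100 μg/mL was not (adjusted p = 0.0673 with the index and 0.0593 with the offsets). By length-scaled level Wnt16 was the second ligand after Wnt5a at both doses, at 32.7 ± 4.58 TPM with 100 μg/mL (SD, n = 3), after 0.872 ± 0.975 TPM in control and 4.92 ± 2.28 TPM in senescent MEFs.

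Among the other ligands Wnt5a, which signals mainly without beta-catenin, had the highest level in each group, from 48.2 ± 26.8 TPM in senescent to 87.7 ± 30.0 TPM in control MEFs. Wnt5a was at 203, 202 and 353 CPM in control and 158, 185 and 70.7 CPM in senescent mice, and Wnt5b at 12.8, 12.5 and 21.4 CPM and 5.05, 7.54 and 10.1 CPM. Both sets of values did not overlap, but the log2 fold changes of −0.87 ± 0.31 and −1.04 ± 0.38 did not pass the test (edgeR adjusted p = 0.0935 and 0.0975). With the sequence offsets both were called lower. Wnt10b had a log2 fold change of −0.26 and Wnt4 of 1.44 ± 1.06, the latter at 0.047 to 2.45 CPM in these groups.

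Wnt11, a ligand known for cell movement in the embryo (chr7:98484319-98504402, plus strand), fell with Fucoidan-FV at 100 μg/mL. It was at 13.4, 18.4 and 29.2 CPM in senescent mice and at 6.64, 5.19 and 5.40 CPM with 100 μg/mL, a log2 fold change of −1.82 ± 0.42 (edgeR adjusted p = 0.0324). At 300 μg/mL it was at 7.37, 4.34 and 6.22 CPM, with a log2 fold change of −1.77 ± 0.42 that missed the threshold (adjusted p = 0.0522). Both treated groups lay wholly below the senescent one. The call at 100 μg/mL was made in 1 of the 6 fits that left out a mouse, that without senescent mouse 4. It was also lost with RLE factors, with only the 2 groups compared and with library 5(2) of control mouse 5 alone. In control mice Wnt11 was at 11.7, 13.6 and 32.3 CPM, a range that held that of the senescent mice. Of the exonic bases of Wnt11, 8.8% overlap a gene on the other strand.

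For ligand export, Wls was at 360, 489 and 595 CPM in control and 905, 1132 and 731 CPM in senescent mice, without overlap. Its log2 fold change of 0.94 ± 0.25 passed the adjusted p (0.0259 by edgeR) but lay below the fold threshold. At 519 ± 167 TPM in senescent MEFs Wls was far above every ligand. Porcn was at 0 to 2.61 CPM in control and 1.42 to 7.03 CPM in senescent mice and was not called in any comparison.

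**Figure D2:**
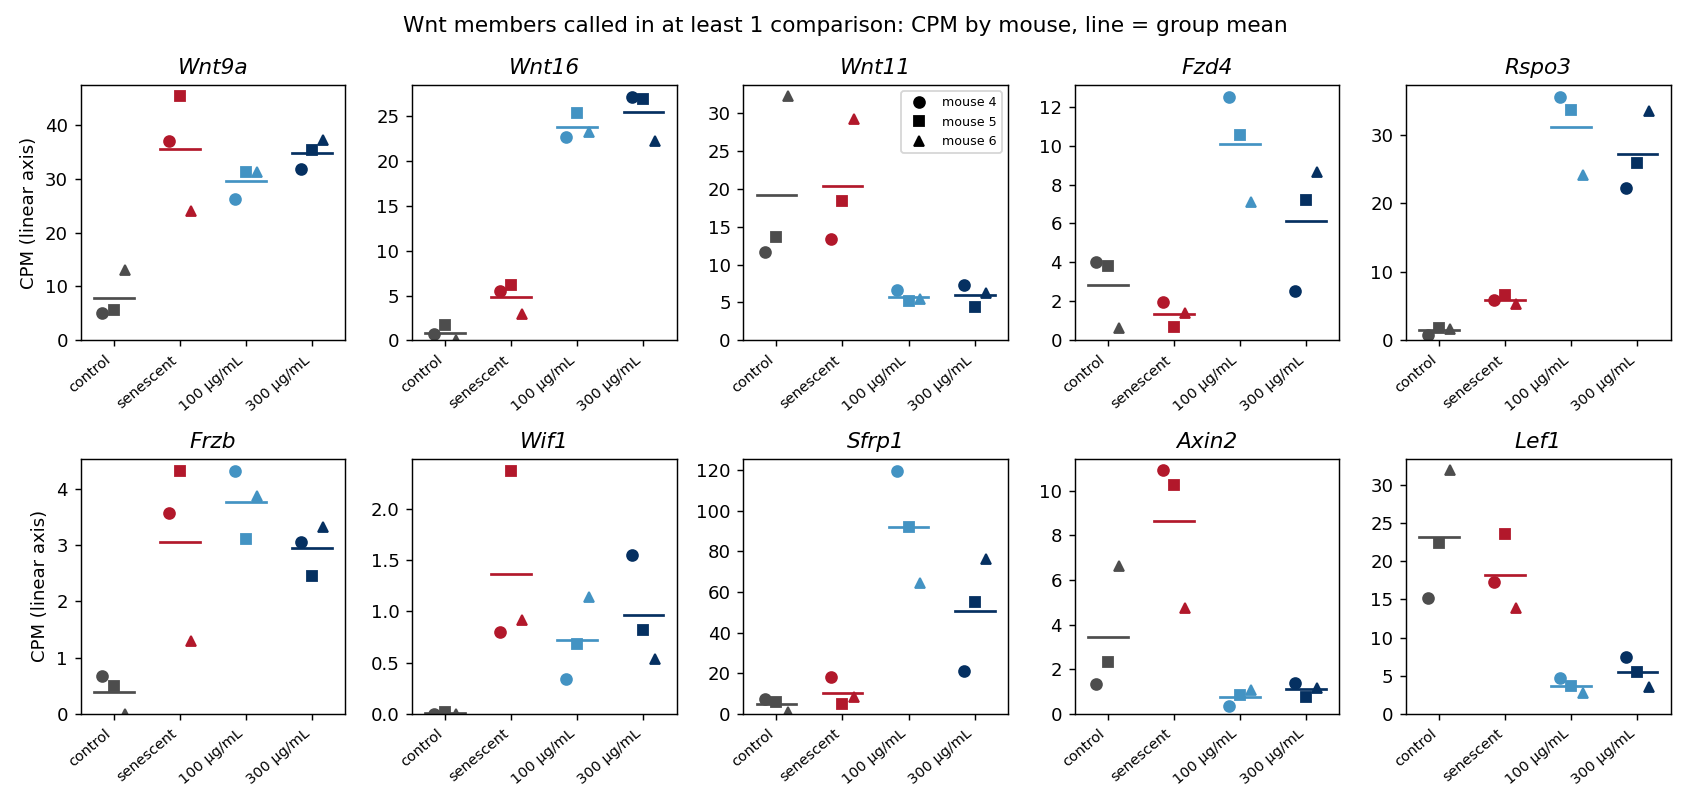
CPM (linear axis, from 0) of the 10 Wnt members called in at least 1 comparison, in control, senescent, and 100 and 300 μg/mL Fucoidan-FV samples, with a symbol per mouse and a line at the group mean. Rspo3 steps up from control to senescent and again with Fucoidan-FV, Wnt9a and Frzb stay at the senescent level, and Axin2 and Lef1 lie lowest in the treated groups.

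None of the 8 Frizzled receptors, the 5 co-receptors and kinase receptors or the 2 export genes was called between senescent and control MEFs, and the Frizzled log2 fold changes ran from −1.06 to 0.75. At an unadjusted p under 0.05 none of the 13 receptors passed in either direction and 1 of the 2 export genes was higher, and DESeq2 called none of the 15. Of all genes tested 25.4% lay under that p. Length-scaled Frizzled levels in control MEFs ran from 0.568 ± 0.397 TPM for Fzd4 to 10.7 ± 7.37 TPM for Fzd7 and 10.5 ± 3.95 TPM for Fzd6. Ryk, at 150.2 ± 3.09 TPM, was the highest receptor, ahead of Lrp5 at 26.8 ± 4.41 and Lrp6 at 20.9 ± 6.85 TPM. Fzd6 and Fzd7 lay within 1 SD of each other's means and were not told apart, and so did Fzd2 at 7.58 ± 5.59 and Fzd5 at 7.14 ± 2.11 TPM. Ror1 was the lowest of the 13 receptors, at 0.23 ± 0.173 TPM.

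**Figure D3:**
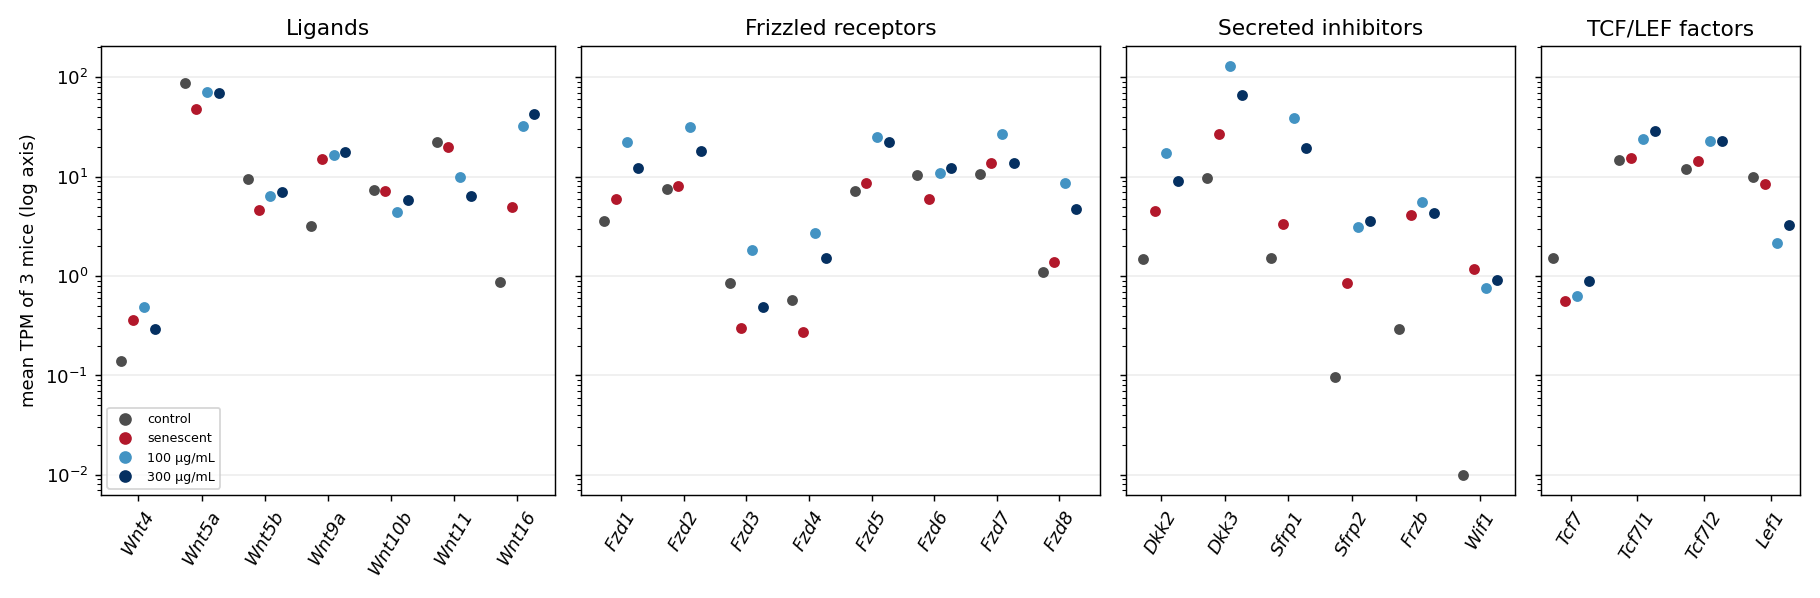
Mean TPM of 3 mice (log axis) of the 7 ligands, 8 Frizzled receptors, 6 secreted inhibitors and 4 TCF/LEF factors in the 4 groups. Wif1 in control MEFs has a mean of 0.00667 TPM and is drawn at the lower edge, 0.01 TPM. Wnt5a lies highest among the ligands in each group, and Wnt16, Sfrp1 and Sfrp2 lie higher in both treated groups than in control MEFs.

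With 100 μg/mL Fucoidan-FV 6 of the 46 Wnt genes were called against senescent MEFs. Fzd4, Sfrp1 and Rspo3 rose, and Wnt11, Axin2 and Lef1 fell. Of all genes tested, 1.1% were called higher and 1.6% lower. DESeq2 called 9 members higher and 3 lower. The median log2 fold change was 0.36 over the members and −0.02 over all genes tested. Over all genes the calls were 165 higher and 240 lower with TMM factors, 174 higher and 147 lower with RLE factors and 528 higher and 307 lower with DESeq2, and the offsets moved the median of all genes to −0.13. Each of the 6 members kept its direction under these settings. The values of 22 members did not overlap between these groups, 15 higher and 7 lower with Fucoidan-FV, and those of 26.2% of all genes did not overlap, 11.2% higher and 15% lower.

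With 300 μg/mL 3 of the 46 were called against senescent MEFs: Rspo3 rose, and Axin2 and Lef1 fell. Of all genes tested, 0.752% were called higher and 0.885% lower. The median log2 fold change was 0.38 over the members and 0.000267 over all genes. Over all genes the calls were 113 higher and 133 lower, but 360 higher and 281 lower with DESeq2, which called 4 members higher and 3 lower. The values of 14 members did not overlap, 11 higher and 3 lower, and of all genes 19.6% did not overlap, 9.41% higher and 10.2% lower. With the mouse as a replicate block only Rspo3 was called at 300 μg/mL. The doses are compared with the same 3 senescent samples, so their calls are not independent of each other.

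**Figure D4:**
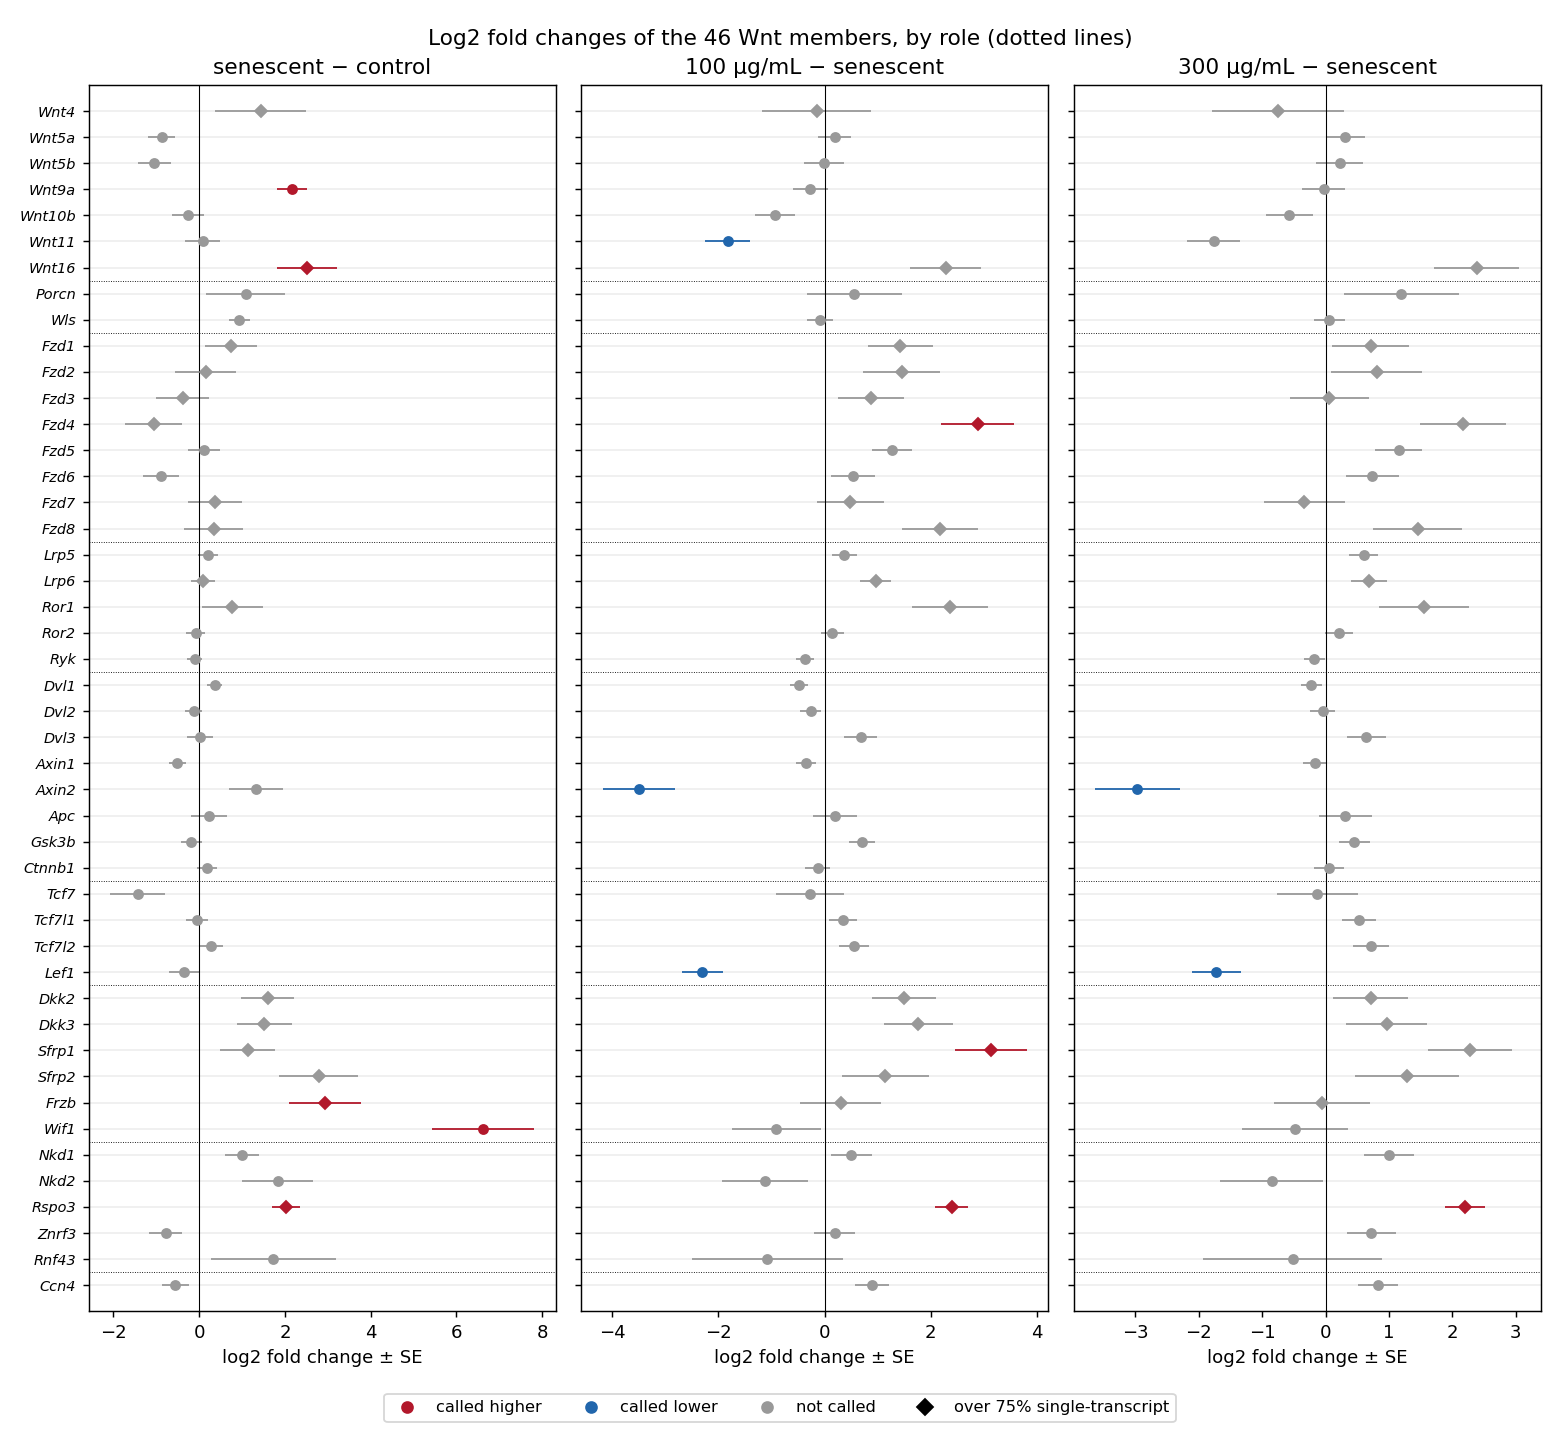
Log2 fold change ± SE of the 46 members in the 3 comparisons, grouped by role between dotted lines, with called genes in red (higher) or blue (lower) and diamonds for members with over 75% of exonic bases in a single transcript. In the middle panel the 8 Frizzled genes lie between 0.49 and 2.88, and Axin2 lies farthest to the left in the middle and right panels.

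Axin2 and Lef1, both direct targets of beta-catenin signaling, fell together at both doses. Axin2 encodes a scaffold of the complex that breaks beta-catenin down, and Lef1 a DNA-binding partner of beta-catenin. The sequences just upstream of their starts are shown because TCF/LEF factors bind the core CTTTGA, and that of Rspo3 is shown beside them because it moved the other way. Each runs 5′ to 3′ on the strand of the gene up to the start of its canonical GENCODE M39 transcript in GRCm39, with CTTTGA or its reverse complement TCAAAG in capitals. For Axin2 (chr11:108811388-108811625, plus strand) the last 12 bases before the start, which are exonic in another Axin2 transcript, are left out, and the printed 238 bases lie between exons of longer Axin2 transcripts. Lef1 is shown for chr3:130903669-130903918, plus strand, where an exon of the antisense noncoding RNA Lef1os1 overlaps. Rspo3 is shown for chr10:29411877-29412126, minus strand.
Axin2: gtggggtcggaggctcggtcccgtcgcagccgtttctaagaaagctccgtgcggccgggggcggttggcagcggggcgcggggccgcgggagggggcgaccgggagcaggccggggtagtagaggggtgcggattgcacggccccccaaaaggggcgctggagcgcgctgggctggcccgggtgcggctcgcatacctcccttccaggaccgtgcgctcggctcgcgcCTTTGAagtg
Lef1: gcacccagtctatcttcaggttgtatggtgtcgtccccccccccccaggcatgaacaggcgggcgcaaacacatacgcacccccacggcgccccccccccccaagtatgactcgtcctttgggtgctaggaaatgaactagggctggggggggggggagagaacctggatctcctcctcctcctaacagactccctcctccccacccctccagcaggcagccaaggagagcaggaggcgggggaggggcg
Rspo3: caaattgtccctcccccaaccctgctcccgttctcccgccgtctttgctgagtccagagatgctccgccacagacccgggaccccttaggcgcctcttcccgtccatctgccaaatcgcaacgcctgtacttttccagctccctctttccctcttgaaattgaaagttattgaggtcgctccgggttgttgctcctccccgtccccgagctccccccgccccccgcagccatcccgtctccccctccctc

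The Axin2 window holds the motif once, 22 bases before the start, and the Lef1 and Rspo3 windows do not hold these letters. Over the 250 bases before the start, 14.1% of 21770 protein-coding genes, 11.6% of the 13447 tested among them, and 8 of the 46 members (17.4%) had a match on either strand. The members were Axin2, Ccn4, Gsk3b, Lrp6, Nkd1, Ror1, Tcf7l1 and Wif1. A match of this length is a description of the sequence and not a measured site. Of these 8, Axin2 was the one called with Fucoidan-FV, and Nkd1, which has the motif 26 bases before the start, had log2 fold changes of 0.50 ± 0.39 and 0.99 ± 0.39 at the 2 doses (edgeR adjusted p = 0.521 and 0.237).

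Axin2 (chr11:108811169-108841609, plus strand) was at 10.9, 10.3 and 4.76 CPM in senescent mice 4, 5 and 6. With 100 μg/mL it was at 0.344, 0.871 and 1.07 CPM and with 300 μg/mL at 1.40, 0.747 and 1.16 CPM. Every treated sample lay below every senescent sample, and also below the lowest control sample except for mouse 4 at 300 μg/mL, since control mice had 1.36, 2.34 and 6.63 CPM. The log2 fold change was −3.50 ± 0.68 at 100 μg/mL (edgeR adjusted p = 0.0153) and −2.97 ± 0.67 at 300 μg/mL (0.0383). At 300 μg/mL the call was lost with the mouse as a block (adjusted p = 0.0637), with libraries 5(1) and 5(2) of control mouse 5 as separate samples (0.0546) and with 5(2) alone (0.0673). Leaving out 1 mouse at a time kept the call in 3 of 6 fits at 100 μg/mL and in 1 of 6, that without senescent mouse 6, at 300 μg/mL.

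Between senescent and control MEFs Axin2 overlapped, with a log2 fold change of 1.33 ± 0.62 that did not pass (edgeR adjusted p = 0.201). Control mouse 6 was above the other controls, and without it the log2 fold change was 2.23 and passed (adjusted p = 0.0327), as did that of 1.69 with the library index as a covariate (0.0223).

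Lef1 (chr3:130903919-131018005, plus strand) was at 17.3, 23.6 and 13.9 CPM in senescent mice, at 4.70, 3.71 and 2.7 CPM with 100 μg/mL and at 7.52, 5.55 and 3.48 CPM with 300 μg/mL. All treated samples lay below all senescent and all control samples, the latter at 15.2, 22.3 and 32 CPM. The log2 fold change was −2.30 ± 0.39 at 100 μg/mL (edgeR adjusted p = 0.00792) and −1.72 ± 0.38 at 300 μg/mL (0.0358). At 100 μg/mL the call was lost in 1 of 6 fits, that without senescent mouse 5 (adjusted p = 0.0506). At 300 μg/mL it was made in 1 of 6, that without mouse 4 of the 300 μg/mL group. It was also lost with only the 2 groups compared and with the mouse as a block (adjusted p = 0.0658). Between senescent and control MEFs Lef1 had a log2 fold change of −0.34 ± 0.37. The libraries came from a stranded kit whose setting in the counting is not given in the sources used here, and 15.7% of the exonic bases of Lef1 overlap a gene on the other strand, against 3.03% for Axin2.

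The other TCF/LEF factors were not called at either dose. Tcf7l1 and Tcf7l2, the factors with the highest levels, had log2 fold changes of 0.35 and 0.55 at 100 μg/mL and 0.53 and 0.72 at 300 μg/mL. Tcf7 was at 2.63, 2.85 and 1.83 CPM in control and 1.05, 0.56 and 1.09 CPM in senescent mice, without overlap, with a log2 fold change of −1.43 ± 0.65 (edgeR adjusted p = 0.185). By length-scaled level Lef1 went from 8.48 ± 2.60 TPM in senescent MEFs to 2.14 ± 0.753 TPM with 100 μg/mL, while Tcf7l1 was at 15.3 ± 4.73 and 24.1 ± 3.80 TPM.

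Among the other transducers, none of Dvl1, Dvl2, Dvl3, Axin1, Apc, Gsk3b and Ctnnb1 was called in any comparison, and their log2 fold changes lay between −0.51 and 0.70. At an unadjusted p under 0.05 edgeR gave 1 of these 7 lower between senescent and control MEFs, 2 higher and 1 lower at 100 μg/mL and 0 at 300 μg/mL, and DESeq2 called none of them. Of the 46 members 15, 20 and 14 lay under that p in these comparisons, and of all genes tested 25.4%, 19.8% and 15.3%. Ctnnb1, which encodes beta-catenin, had the highest level, with 641 ± 136 TPM in control, 776 ± 193 in senescent, 861 ± 103 with 100 μg/mL and 911 ± 81.8 TPM with 300 μg/mL. Senescent mouse 6 had low values of several of these genes: Apc was at 176, 257 and 53.9 CPM and Dvl3 at 82.4, 85.8 and 28.9 CPM in senescent mice 4, 5 and 6. Ccn4, a matricellular target of the pathway, was at 171, 186 and 63.4 CPM in the same samples, 246, 307 and 229 CPM with 100 μg/mL and 189, 305 and 249 CPM with 300 μg/mL. Its log2 fold changes of 0.90 ± 0.32 and 0.82 ± 0.32 did not pass (edgeR adjusted p = 0.137 and 0.225).

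Rspo3 (chr10:29327285-29411876, minus strand) was called in each of the 3 comparisons. It was at 0.85, 1.83 and 1.64 CPM in control mice 4, 5 and 6 and at 5.82, 6.60 and 5.37 CPM in senescent mice. With Fucoidan-FV it was at 35.5, 33.7 and 24.2 CPM at 100 μg/mL and at 22.3, 25.9 and 33.4 CPM at 300 μg/mL. The control, senescent and treated samples formed 3 ranges without overlap. The log2 fold change was 2.02 ± 0.32 between senescent and control MEFs (4.07-fold, edgeR adjusted p = 0.00135), 2.39 ± 0.32 at 100 μg/mL (5.25-fold, 0.00232) and 2.20 ± 0.31 at 300 μg/mL (4.59-fold, 0.00463). Each call was made in 6 of 6 fits that left out 1 mouse.

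Rspo3 is among the genes that differed between the libraries of control mouse 5. Against 5(1) alone the log2 fold change between senescent and control MEFs was 2.76 (adjusted p = 0.00384), and against 5(2) alone it was 1.51 (adjusted p = 0.0413). With the library index as a covariate the 3 log2 fold changes were 2.01, 2.36 and 2.20, and with the sequence offsets 1.95, 2.04 and 2.17, and all were called. With libraries 5(1) and 5(2) as separate samples the calls at both doses were lost (adjusted p = 0.0545 and 0.106), and so was that between senescent and control MEFs with only these groups in the fit (0.064). Of the exonic bases of Rspo3, 9.55% overlap a gene on the other strand.

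The ligases that R-spondins remove were not called. Znrf3 was at 12.6, 8.40 and 7.57 CPM in control and 7.80, 5.99 and 2.82 CPM in senescent mice, a log2 fold change of −0.78 ± 0.39, and Rnf43 was at 0 to 1.92 CPM in these groups. Nkd1 and Nkd2, which bind Dishevelled, had log2 fold changes of 1.00 ± 0.40 and 1.83 ± 0.83 between senescent and control MEFs (edgeR adjusted p = 0.131 and 0.187). Nkd1 was called when control mouse 6 was left out. Nkd2 was at 8.92, 9.36 and 0.094 CPM in control and 27.9, 24.4 and 13.4 CPM in senescent mice, so control mouse 6 stood far below the other controls.

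All 6 secreted inhibitors had positive log2 fold changes between senescent and control MEFs, from 1.13 to 6.63 with a median of 2.19. Of all genes tested 54.2% were positive. The 6 stayed positive with RLE factors, DESeq2, either library of control mouse 5, the sequence offsets and the library index. These fits use the same samples, so they are not independent of each other. Frzb and Wif1 passed the test. Wif1, which binds Wnt ligands (chr10:120869865-120936555, plus strand), had counts of 0, 1 and 0 in control and 25, 55 and 27 in senescent mice. That is 107 counts against 1, a ratio of 122 with an exact 95% interval of 21.5 to 4867, which covers counting error only. The edgeR adjusted p was 0.00295, and the call was made in 6 of 6 fits that left out a mouse. Levels were low, at 0.799, 2.37 and 0.917 CPM in senescent mice, at 0.344, 0.681 and 1.14 CPM with 100 μg/mL and at 1.55, 0.818 and 0.539 CPM with 300 μg/mL, without a call at either dose.

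Frzb (chr2:80242313-80278304, minus strand), a Frizzled-related protein of cartilage that binds Wnt ligands, was at 0.68, 0.491 and 0 CPM in control and 3.58, 4.31 and 1.29 CPM in senescent mice. The groups did not overlap, and the log2 fold change was 2.93 ± 0.84 (edgeR adjusted p = 0.037). The call was made in 2 of 6 fits that left out a mouse, those without control mouse 6 and without senescent mouse 6, and was lost with only these groups in the fit. With Fucoidan-FV Frzb was at 4.32, 3.10 and 3.88 CPM at 100 μg/mL and at 3.06, 2.45 and 3.32 CPM at 300 μg/mL, with log2 fold changes of 0.30 and −0.05 and no call.

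Sfrp1 (chr8:23901263-23939648, plus strand), a secreted Frizzled-related inhibitor, had its largest difference with Fucoidan-FV. It was at 7.39, 5.95 and 0.94 CPM in control mice, at 18.4, 4.74 and 8.22 CPM in senescent mice, at 120, 91.8 and 64.6 CPM with 100 μg/mL and at 21.1, 55.1 and 76.2 CPM with 300 μg/mL. Neither treated group overlapped with the senescent one. The log2 fold change at 100 μg/mL was 3.13 ± 0.68 (8.77-fold, edgeR adjusted p = 0.0235), and that at 300 μg/mL was 2.28 ± 0.66 and did not pass (adjusted p = 0.102). Mouse 4 at 300 μg/mL, the sample with the index of −0.86, was the lowest of the 6 treated samples. With the library index as a covariate the log2 fold changes were 2.49 and 2.28 and both were called (adjusted p = 0.0079 and 0.00981), while with libraries 5(1) and 5(2) as separate samples the call at 100 μg/mL was lost (0.0556). At 100 μg/mL the call was made in 2 of 6 fits that left out a mouse, those without senescent mouse 4 and without mouse 6 of the 100 μg/mL group.

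Dkk2 and Dkk3, of the Dickkopf family, share the single-transcript pattern with Sfrp1 and were not called. Dkk3 was at 33.3, 30.1 and 4.98 CPM in control, 92.4, 29.9 and 74.5 CPM in senescent, 297, 274 and 97.2 CPM with 100 μg/mL and 55.9, 194 and 135 CPM with 300 μg/mL. Its log2 fold changes were 1.52 ± 0.65, 1.76 ± 0.65 and 0.97 ± 0.64 (edgeR adjusted p = 0.16, 0.149 and 0.531). In length-scaled level Dkk3 was the highest of the inhibitors in every group, from 9.62 ± 6.67 TPM in control to 129 ± 71.2 TPM with 100 μg/mL. Sfrp2 was at 0.047 to 0.127 CPM in control and 0.612 to 0.733 CPM in senescent mice without overlap, with a log2 fold change of 2.79 ± 0.92 (adjusted p = 0.0698).

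Fzd4 (chr7:89053563-89062342, plus strand), a receptor for Wnt ligands and for norrin, was the Frizzled gene called at 100 μg/mL. It was at 4.04, 3.83 and 0.611 CPM in control mice, 1.98, 0.69 and 1.39 CPM in senescent mice, 12.5, 10.6 and 7.13 CPM with 100 μg/mL, and 2.52, 7.22 and 8.63 CPM with 300 μg/mL. Neither treated group overlapped with the senescent one. The log2 fold change was 2.88 ± 0.69 at 100 μg/mL (7.38-fold, edgeR adjusted p = 0.0382) and 2.17 ± 0.67 at 300 μg/mL (0.125). The call was lost in each of the 6 fits that left out a mouse (adjusted p from 0.0559 to 0.131), with library 5(2) alone (0.062) and with the mouse as a block (0.0658). It was also lost with libraries 5(1) and 5(2) as separate samples. With the library index as a covariate the log2 fold changes were 2.23 and 2.14 and both were called.

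All 8 Frizzled genes had positive log2 fold changes at 100 μg/mL, from 0.49 for Fzd7 to 2.88 with a median of 1.35, but with the sequence offsets 6 of 8 were positive with a median of 0.90, and with the library index 7 of 8 with a median of 0.87. At 300 μg/mL 7 of 8 were positive, with a median of 0.77. Of all genes tested 48.9% were positive at 100 μg/mL and 50.1% at 300 μg/mL. Fzd5 has 1.82% single-transcript bases, and 18.1% of its exonic bases overlap a gene on the other strand. It was at 34.1, 35.7 and 10.3 CPM in senescent mice, 65.3, 68.3 and 59.9 CPM with 100 μg/mL and 63.3, 63.8 and 50.4 CPM with 300 μg/mL. Neither treated group overlapped with the senescent one, and the log2 fold changes of 1.27 ± 0.38 and 1.15 ± 0.38 did not pass (edgeR adjusted p = 0.0746 and 0.147). With the mouse as a block Fzd5 was called at 100 μg/mL and Fzd4 was not. Fzd8 was at 9.46, 2.59 and 6.42 CPM in senescent mice and 35.2, 36.5 and 12 CPM with 100 μg/mL, a log2 fold change of 2.18 ± 0.72 (adjusted p = 0.107).

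Ror1, a kinase receptor for Wnt5a, was at 2.30, 0.991 and 1.77 CPM in senescent mice and 11, 9.50 and 5.67 CPM with 100 μg/mL, a log2 fold change of 2.36 ± 0.72 (edgeR adjusted p = 0.0828). The co-receptor Lrp6 was at 65.7, 62.2 and 24.7 CPM in senescent mice and 96.9, 103 and 97.2 CPM with 100 μg/mL, a log2 fold change of 0.96 ± 0.29 (adjusted p = 0.0749). Both sets of values were without overlap, and senescent mouse 6 was the low sample for Lrp6. Ror2 and Ryk had log2 fold changes between −0.36 and 0.21 at the 2 doses.

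The fold changes differed between the classes of members by single-transcript share. Over the 16 members with over 75% single-transcript bases the median log2 fold change was 0.95 between senescent and control MEFs, 1.48 at 100 μg/mL and 0.89 at 300 μg/mL. Over the other 30 it was 0.05, −0.05 and 0.13. Of the 3 members called higher at 100 μg/mL all 3 were in the first class, and all 3 called lower were in the second. The part of the library difference in this split was not tested.

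Between 300 and 100 μg/mL 0 of the 46 Wnt genes were called, and of all genes tested 0.00665%, that is 1 gene, was called. No member had an unadjusted p under 0.05 by edgeR, where 0.625% of all genes tested did. The lowest adjusted p of a member was 0.97, and DESeq2 called none. The log2 difference, 300 minus 100 μg/mL, was −0.19 ± 0.30 for Rspo3, 0.53 ± 0.65 for Axin2, 0.58 ± 0.38 for Lef1, 0.06 ± 0.41 for Wnt11, −0.72 ± 0.64 for Fzd4 and −0.86 ± 0.63 for Sfrp1. The median SE over the members was 0.402, so differences of this size between the doses could not be told from the spread between mice. Fzd4, Sfrp1 and Wnt11 passed the test at 100 μg/mL and not at 300 μg/mL, but they are not shown to differ between the doses.

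A further 93 genes of the pathway were listed in 6 groups, of which 92 were matched and 70 were tested. Between senescent and control MEFs 10 of the 70 rose and 1 fell, and the median log2 fold change was 0.13. At 100 μg/mL 1 rose and 4 fell, with a median of 0.16, and at 300 μg/mL 3 rose and 3 fell, with a median of 0.16. Over all genes tested the shares called higher and lower were 4.47% and 3.95% between senescent and control MEFs. They were 1.1% and 1.6% at 100 μg/mL and 0.752% and 0.885% at 300 μg/mL. The medians of all genes were 0.07, −0.02 and 0.000267.

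Genes of R-spondin reception were among those called. Rspo2, another R-spondin, was at 15.6, 13.3 and 4.98 CPM in control, 75.6, 52.1 and 21.9 CPM in senescent, 192, 123 and 152 CPM with 100 μg/mL and 283, 151 and 167 CPM with 300 μg/mL. The 3 ranges of control, senescent and treated samples did not overlap. Its log2 fold changes were 2.14 ± 0.46 (edgeR adjusted p = 0.00901), 1.64 ± 0.45 (0.0585) and 2.01 ± 0.46 (0.0402), of which the first and the third were called. At 300 μg/mL the call was made in 1 of 6 fits that left out a mouse, that without senescent mouse 4, and was lost with only the groups compared. Lgr5, a receptor for R-spondins, rose from 0 to 0.294 CPM in control to 0.578 to 6.36 CPM in senescent mice, a log2 fold change of 4.36 ± 0.87 (adjusted p = 0.0055). Lgr6, another such receptor, was at 11.2, 11.2 and 12 CPM in senescent mice and 3.22, 2.16 and 2.15 CPM with 100 μg/mL, and fell with a log2 fold change of −2.19 ± 0.49 (adjusted p = 0.028). The Lgr6 call was lost in each of the 6 fits that left out a mouse.

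Reck, which with Gpr124 serves signaling by some Wnt ligands, rose between senescent and control MEFs with a log2 fold change of 2.00 ± 0.29 (edgeR adjusted p = 0.000721) and again at 300 μg/mL with 1.25 ± 0.28 (0.0398). The glypican Gpc3, a cell surface proteoglycan that binds Wnt ligands, was at 7.35, 1.51 and 5.67 CPM in senescent mice, 22.9, 21.5 and 34.7 CPM with 100 μg/mL and 12.8, 20.8 and 34.9 CPM with 300 μg/mL. It rose at both doses, with log2 fold changes of 2.44 ± 0.51 (adjusted p = 0.0199) and 2.23 ± 0.51 (0.0397). With the mouse as a block the calls of Reck and Gpc3 at 300 μg/mL were lost (adjusted p = 0.0722 and 0.065). Both were also lost with only the groups compared, with libraries 5(1) and 5(2) of control mouse 5 separate and with 5(1) alone. That of Gpc3 was lost with 5(2) alone as well, and its call at 100 μg/mL was lost with only the groups compared. Leaving out 1 mouse kept the Gpc3 call in 2 of 6 fits at either dose and the Reck call at 300 μg/mL in 3 of 6.

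Among the other genes that rose in senescent MEFs, Sfrp4, a further Frizzled-related inhibitor, was at 0.17, 0.883 and 0.564 CPM in control and 4.73, 4.83 and 9.07 CPM in senescent mice, a log2 fold change of 3.46 ± 0.67 (edgeR adjusted p = 0.00461). The corepressors Tle2 and Tle5 and the Apc homologue Apc2 rose with log2 fold changes of 1.15, 1.41 and 2.24. The Tle2 call was lost in 6 of 18 alternatives, among them no filter on low counts, the sequence offsets (0.93) and leaving out control mouse 4 or 5, and that of Tle5 with the sequence offsets (1.00). Of the planar polarity genes, Prickle1 rose (1.45) and Vangl2 fell, from 22.4 to 25.9 CPM in control to 10.3 to 11.5 CPM in senescent mice. Ccn5 and Tnfrsf19, listed as targets of beta-catenin, rose with log2 fold changes of 2.16 and 4.30. Both calls were lost with library 5(2) alone (edgeR adjusted p = 0.0733 and 0.0528), that of Tnfrsf19 also with the mouse as a block (0.0566), and they were made in 4 and 2 of the 6 fits that left out a mouse. With only the 2 groups in the fit the calls of Rspo2, Lgr5, Prickle1, Vangl2, Tle2, Ccn5 and Tnfrsf19 were lost.

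Of the 15 other listed targets of beta-catenin that were tested, 3 fell at 100 μg/mL and the same 3 fell at 300 μg/mL: Myc, Nrcam and Cd44. The shares of all genes called lower were 1.6% at 100 μg/mL and 0.885% at 300 μg/mL. Myc, a growth regulator, was at 57.1, 68.7 and 75.7 CPM in senescent mice, 27.9, 27.9 and 30.5 CPM with 100 μg/mL and 37.9, 29.7 and 31.8 CPM with 300 μg/mL. Its log2 fold changes were −1.22 ± 0.20 (edgeR adjusted p = 0.00765) and −1.02 ± 0.20 (0.0243). Nrcam, a cell adhesion gene, was at 16.6, 19.8 and 15.1 CPM in senescent mice, 3.10, 3.10 and 3.56 CPM with 100 μg/mL and 3.30, 4.45 and 1.87 CPM with 300 μg/mL. Cd44, the hyaluronan receptor, was at 1201, 1027 and 709 CPM in senescent mice, 392, 321 and 315 CPM with 100 μg/mL and 576, 390 and 295 CPM with 300 μg/mL. For all 3 genes every treated sample lay below every senescent and every control sample. At 100 μg/mL the calls of Nrcam and Cd44 were made in 6 of 6 fits that left out a mouse. That of Myc was made in 5. At 300 μg/mL the Myc call was lost with DESeq2, without the low-count filter, and with sequence offsets with or without the block. The calls of Myc and Cd44 at this dose were lost with only the groups compared. That of Cd44 was lost with libraries 5(1) and 5(2) separate and with 5(2) alone. Leaving out a mouse kept the calls at 300 μg/mL in 5 of 6 fits for Nrcam and 2 of 6 for Myc and for Cd44. The median log2 fold change of the 15 was 0.01 at 100 μg/mL and −0.47 at 300 μg/mL. All of these genes are under many controls other than the Wnt pathway.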

How the data were processed

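RNA was extracted with Trizol and libraries were made with the Illumina TruSeq Stranded Total RNA kit. Per the study's methods and processing notes, the authors trimmed reads with Trimmomatic, aligned them to GRCm39 with STAR 2.7.11b and quantified genes with RSEM 1.3.1. Whether counting used strand is not given in the sources used here. The deposited expected counts, estimated by RSEM, were rounded to integers, after which the pair of libraries of control mouse 5 was added up. The deposited TPM values were used as the authors gave them, for levels only.

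Genes with enough counts by filterByExpr (minimum count 10, minimum total 15) were kept, which left 15034 of 57010. All 4 groups were fitted together with edgeR 4.0.16 (R 4.3.3), TMM factors and the quasi-likelihood test, with Benjamini-Hochberg adjustment over all genes tested. The SE is the log2 fold change divided by the square root of F. DESeq2 1.42.0 served as an alternative. The fits were tested on simulated data. Depth was 22782536 to 31278750 counts per library, and p-values measure the spread between cultures of 3 mice per group.

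Transcripts, GC content and promoter windows came from GENCODE M39 on GRCm39, in which 56297 of the genes were matched. The sequence offsets are fitted trends of each library on single-transcript share, length and GC content. The library index covariate was chosen after seeing the data. Groups share mouse numbers, and per the labels same-numbered samples come from the same mouse, so the mouse was a replicate block in an alternative fit. Over 18 pairs of same-numbered samples the correlation of deviations had a median of −0.0372, and 8 were over 0.1. The members and the lists of other genes were chosen with earlier results of these data known. Every sample value is given for members called in a comparison against senescent or control MEFs, called genes of the other lists are named, and other members were named by role, some of them after their values were seen.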

Additional observations from a re-analysis of the deposited data

How the results depend on the processing

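Between senescent and control MEFs 5 members were called, and the count was 9 with DESeq2 and with no filter on low counts, 2 with only these groups in the fit, 11 with sequence offsets with or without the block, 10 with the library index and 11 with index and block. At 100 μg/mL, where 6 were called, it was 12 with DESeq2, 15 without filter, 3 with libraries 5(1) and 5(2) separate and 10 with index and block. At 300 μg/mL, where 3 were called, it was 7 with DESeq2, 10 without filter, 1 with the libraries separate, 1 with the replicate block, 6 with offsets, 7 with offsets and block, 8 with the index and 9 with index and block. Counts over all genes moved too. Against 672 higher and 594 lower in senescent MEFs, 165 and 240 at 100 μg/mL and 113 and 133 at 300 μg/mL, the totals for the 3 comparisons were 1826, 835 and 641 with DESeq2, 1498, 800 and 580 without filter, 1291, 348 and 205 with the libraries separate, 1723, 563 and 366 with offsets, 1728, 691 and 530 with the index, and 1780, 835 and 587 with index and block. With only the groups compared 699 were called between senescent and control MEFs, and with the block 207 at 300 μg/mL. Leaving out 1 mouse gave 3 to 8, 1 to 6 and 1 to 2 calls of members. Over all genes the same fits gave 911 to 1456, 136 to 365 and 46 to 220 calls. The lowest counts of members were 3 without control mouse 4 or senescent mouse 4, 1 without senescent mouse 5 at 100 μg/mL, and 1 without senescent mouse 4 or 5 or without mouse 5 or 6 of the 300 μg/mL group. Between the doses the count was 0 under each of 19 alternatives, and no alternative run turned the direction of a member or listed gene in a comparison where it was called. Among the Frizzled genes, all 8 positive at 100 μg/mL, 2 were negative with the offsets and 1 with the index. The block changed no other call of a member than those of Fzd4, Fzd5, Axin2 and Lef1. The causes of these changes were not tested. With 3 mice per group the SE of low members was large, as for Rnf43 (1.46) and Wnt4 (1.06), so differences of that size were not detectable.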

Other observations

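Some samples stood apart over the members. Of the 46 members, control mouse 6 had the lowest of all 12 values in 17 and the highest in 7, senescent mouse 6 had the lowest in 12, and mice 4 and 5 of the 100 μg/mL group had the highest in 8 each. Over the members with more than 75% single-transcript bases the median log2 deviation from the mean over samples was lowest at −2.35, for control mouse 6, and highest at 1.54, for mouse 4 with 100 μg/mL, and over the other members from −0.23 to 0.21.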
